A study of Mus musculus with 21 samples.

Results

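The kinesin motor family was read from mRNA arrays of fetal mouse lung after intrauterine exposure to cigarette smoke. The family was taken as all genes whose probe sets carry 1 gene symbol made of Kif, a number and an optional letter. This gave 37 of the 22180 genes on the array. Where a gene had several probe sets, the one with the highest mean stood for it. By their known roles 13 genes were counted as mitotic, 10 as transport, 9 as ciliary and 5 as other kinesins.

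Kinesins are motor proteins that use ATP to move along microtubules or to take them apart. Mitotic kinesins build the spindle, align and separate chromosomes and act at the midbody when daughter cells part, and most of them are made mainly in late cell cycle phases. Transport kinesins carry vesicles, mitochondria and endosomes in all cells and over long distances in neurons. Ciliary kinesins carry cargo into the cilium, set its length or act in the motile cilia of airway and other epithelia.

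The lungs came from 21 Balb/c wild-type fetuses at E18.5, with 1 array per fetus and no pooling. CS fetuses (6 males and 6 females) were carried by dams that inhaled mainstream cigarette smoke from gestational day 2.5 to 17.5. AIR fetuses (5 males and 4 females) came from dams kept in filtered air, which the sample labels call untreated. A male and a female were taken from each litter, but littermates are not identified, so p-values that treat fetuses as independent can be too small.

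Values are RMA log2 intensities, where a difference of 1 is a doubling of intensity, and they ran from 0.045 to 12.594 with array medians of 2.104 to 2.196. Pairs of arrays correlated at 0.95 to 0.971, and Xist and 3 Y-linked genes separated the labelled sexes in all 21 fetuses. The mean of 8 lung epithelial genes was 7.27 to 8.02, so the labelled tissue carried its markers in every array. In 11 arrays the mean of a heart, skeletal muscle, thymocyte or oesophagus list lay more than 1 log2 unit above the median array. The animal numbers in the labels fall into a lower range (8 CS and 3 AIR) and a higher range (4 CS and 6 AIR) with a gap between them. What the numbers stand for is not stated. The study's methods mention experimental batches of different seasons without giving them for the fetuses.

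CS and AIR were compared with limma over 40543 probe sets. The study threshold, at which a gene was called, asks for a fold of more than 1.2 either way together with p under 0.05 before adjustment. Of the 13 mitotic kinesins 11 were higher in CS lungs and 0 lower, against 2.46% of all genes called higher and 1.93% called lower. None of the 10 transport and none of the 9 ciliary kinesins were called in either direction. Some of these were dim against the median of all array values, 2.14. The mean log2 intensity over all arrays was 1.63 for Kif17, 2.04 for Kif27 and 2.13 for Kif19a among ciliary kinesins. Kif9 lay at that median (2.14). Below it among transport kinesins were Kif5a (1.54) and Kif5c (1.80). Dim probe sets lie near background, so the lack of a call says little about these members. Of the 5 other kinesins 1 was higher, Kif12. The median difference between CS and AIR was 0.51 on the log2 scale for mitotic, -0.05 for transport, 0.04 for ciliary and 0.05 for other kinesins, and 0.00 over all genes. With the false discovery rate held to 10%, 0 kinesins and 0% of all genes passed in limma, with a lowest adjusted p of 0.348 over all probe sets. At an unadjusted p under 0.05, without a fold limit, 14 kinesins and 1864 genes passed. In pieces of whole lung, fewer cells of a type and less RNA per cell cannot be told apart.

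**Figure D1:**
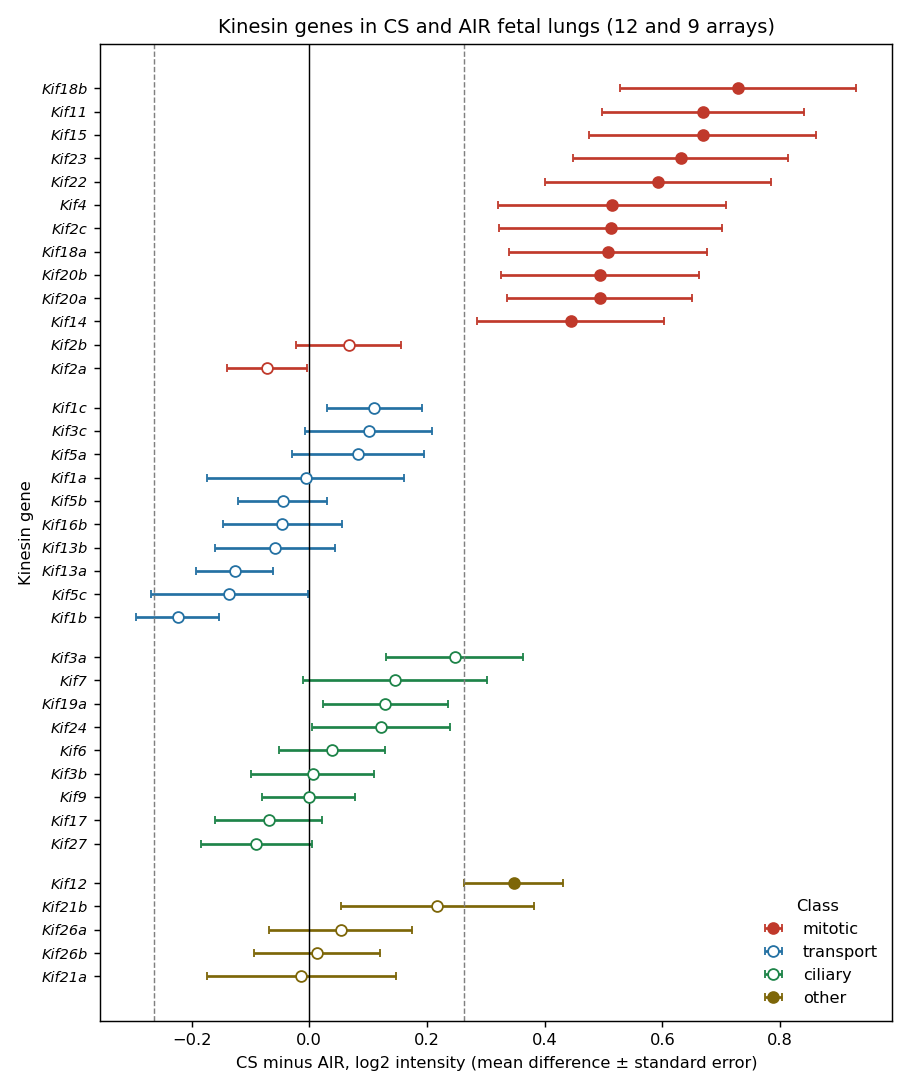
Difference between CS (12 arrays) and AIR (9 arrays) lungs for each of the 37 kinesin genes, grouped and coloured by class. The x axis is the difference of mean log2 intensity with its limma standard error, filled points passed the study threshold, and dashed lines mark a fold change of 1.2. All 11 called mitotic members lie between 0.44 and 0.73, while the transport members lie between -0.22 and 0.11.

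Among the mitotic kinesins the lowest p-values were those of Kif11, Kif18b, Kif15 and Kif23. Kif11, also called Eg5, is the tetrameric motor that pushes spindle poles apart. Its log2 intensity in CS lungs was 4.43 at the lowest, 5.04 at the median and 5.67 at the highest, and in AIR lungs 3.77, 4.30 and 5.01. The groups overlapped, with 6 CS fetuses above the highest AIR fetus and 6 AIR fetuses below the lowest CS fetus. The means were 5.04 ± 0.43 (SD, n = 12) and 4.37 ± 0.38 (SD, n = 9), a 1.59-fold difference. The log2 difference was 0.67 with a standard error of 0.17 (limma adjusted p = 0.415, exact permutation p = 0.0019). The permutation test was two-sided and used all 293930 regroupings of the fetuses.

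Kif18b, a motor that shortens the astral microtubules of the spindle, had the largest difference of the family. It ran from 4.82 through a median of 5.28 to 6.06 in CS lungs and from 4.23 through 4.50 to 5.68 in AIR lungs. Only 4 CS fetuses were above the highest AIR fetus, and 6 AIR fetuses were below the lowest CS fetus. The difference was 0.73 with a standard error of 0.20 (1.66-fold, limma adjusted p = 0.445, exact permutation p = 0.00381).

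Kif15, which holds the bipolar spindle open beside Kif11, ran from 3.88 through 4.41 to 5.41 in CS and from 3.44 through 3.64 to 4.63 in AIR lungs. Here 7 of 9 AIR fetuses lay below all CS fetuses, and 3 CS fetuses lay above all AIR fetuses. The difference was 0.67 with a standard error of 0.19 (1.59-fold, limma adjusted p = 0.445, exact permutation p = 0.00406). Kif23, the MKLP1 subunit of centralspindlin, which bundles microtubules of the central spindle for cytokinesis, ran from 4.52 through 5.20 to 5.96 in CS and from 3.90 through 4.69 to 5.13 in AIR lungs. In CS lungs 7 of 12 values were above the highest AIR value. The difference was 0.63 with a standard error of 0.18 (1.55-fold, limma adjusted p = 0.445, exact permutation p = 0.00378).

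**Figure D2:**
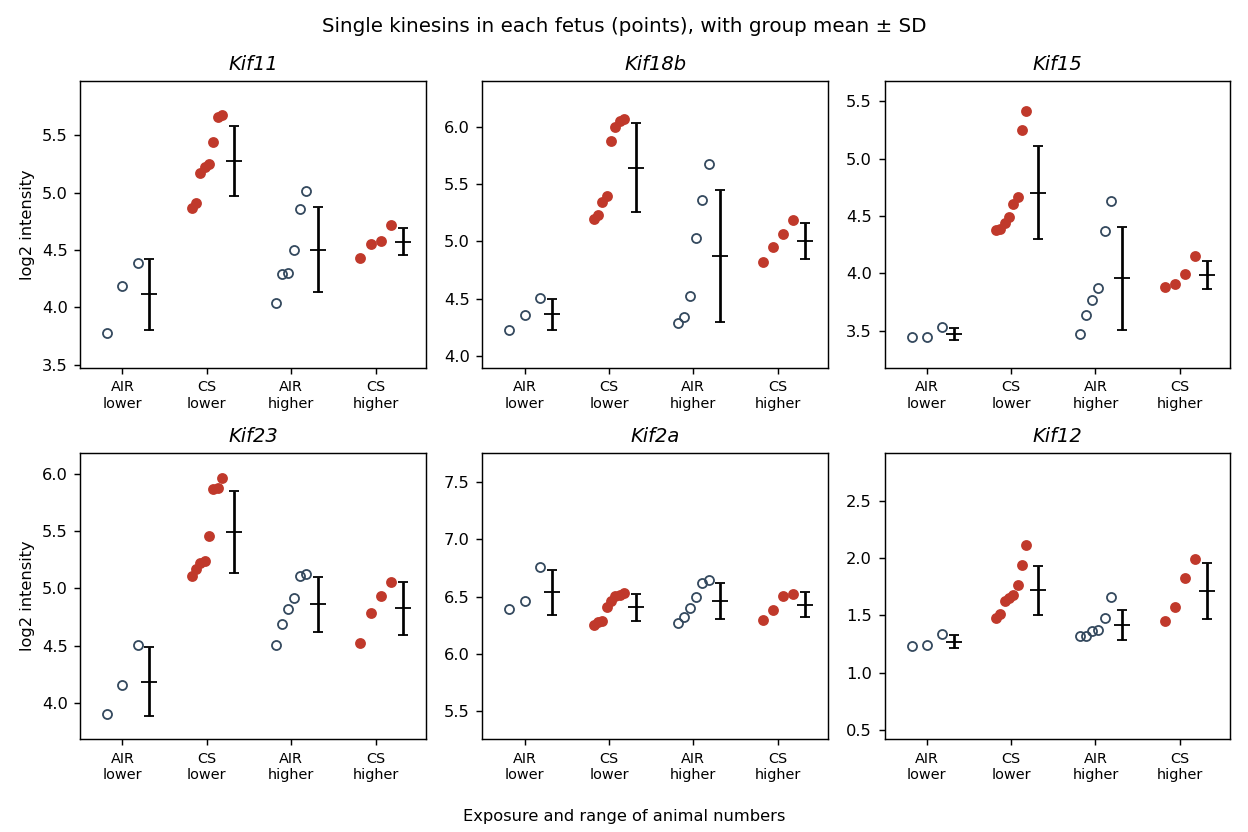
Log2 intensity of 6 kinesins in each fetus, drawn as 1 point per fetus sorted by value, with the mean ± SD of each group beside the points. Groups are AIR (open) and CS (filled) within the lower (3 and 8 fetuses) and higher (6 and 4 fetuses) animal numbers, and all panels span the same height. Kif11, Kif18b, Kif15 and Kif23 were apart in the lower numbers and overlapped in the higher numbers, Kif2a overlapped in both, and Kif12 was apart in the lower numbers only.

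The other 7 mitotic kinesins called were higher by 0.44 to 0.59 on the log2 scale. Levels of these and the remaining members are means ± SD over the 12 CS and 9 AIR fetuses. The kinesin-6 motors Kif20a and Kif20b act at the central spindle and midbody. Kif20a, which brings the chromosomal passenger complex to the central spindle, was 4.83 ± 0.40 in CS and 4.34 ± 0.34 in AIR lungs on average (difference 0.49). Kif20b, a motor of late cytokinesis, was 5.02 ± 0.41 and 4.53 ± 0.39 (difference 0.49). Kif14, a kinesin-3 motor that acts in cytokinesis, had the smallest difference of those called, with means of 3.73 ± 0.35 and 3.29 ± 0.41 (difference 0.44).

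Chromosome motors were higher too. Kif22, a chromokinesin that pushes chromosome arms to the spindle equator, had means of 4.39 ± 0.43 in CS and 3.80 ± 0.50 in AIR lungs (difference 0.59). Kif4, a chromokinesin that also acts at the central spindle, had means of 3.94 ± 0.36 and 3.42 ± 0.58 (difference 0.51). The standard error of either difference was 0.19. Kif18a, which damps chromosome movement at the metaphase plate, had means of 3.30 ± 0.41 and 2.79 ± 0.39 (difference 0.51). Kif2c, also called MCAK, which releases faulty attachments between kinetochores and microtubules, had means of 4.05 ± 0.42 and 3.54 ± 0.50 (difference 0.51). Exact permutation p-values of these 7 ran from 0.00756 for Kif20a to 0.0198 for Kif2c. With fetuses regrouped only inside the ranges of animal numbers, those of Kif14 (0.0607), Kif2c (0.0674) and Kif4 (0.0519) lay above 0.05.

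Kif2a and Kif2b, relatives of Kif2c that also take microtubules apart, did not pass. Kif2a acts at spindle poles and also in neurons outside division. It ran from 6.25 through 6.44 to 6.54 in CS lungs and from 6.27 through 6.46 to 6.76 in AIR lungs, so that the groups lay on top of each other. The difference was -0.07 with a standard error of 0.07 (limma adjusted p = 0.866, exact permutation p = 0.241). Kif2b, a spindle kinesin known from human cells, was dim, at 1.63 ± 0.21 in CS and 1.56 ± 0.18 in AIR lungs, below the array median of 2.14. The 11 called members all had means above 3 over the 21 arrays.

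The promoters of the mitotic kinesins were searched for the letters of the cell cycle genes homology region (CHR), a promoter element bound by the DREAM and MuvB complexes in genes of late cell cycle phases. Letters counted as CHR were TTTGAA and TTCGAA on both strands (TTCAAA is the first read on the other strand), and those of the CCAAT box were CCAAT and ATTGG. RefSeq windows of 250 bases before to 50 after the annotated start (GRCm38.p6) were at hand for 31 of the 37 kinesins, 10 of them called mitotic members. CHR letters were in 9 of these 10 and in 3 of 19 windows of kinesins that are not mitotic, with 19.4% of 27025 genes holding them. CCAAT letters were in 6 of the 10, against 37.9% of all genes. They were in 7 of the 19 windows of kinesins that are not mitotic, and in 5 of 8 ciliary ones. Kif18a was the called mitotic member without CHR letters, and neither Kif2a nor Kif2b had them. No CHR match overlapped a CCAAT match. A match is a run of letters and not a measured binding site.

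Shown are the 100 bases around the start (82 before it and 18 from it on) for the 4 mitotic kinesins described in full, for Kif2a, a mitotic member that was not called, and for Kif13a, a transport kinesin. CHR letters are in capitals, and 5.63% of all genes hold them within this stretch. Of the called mitotic members 6 of 10 hold them there, and of the kinesins that are not mitotic 3 of 19.
Kif11, chr19:37376300-37376399, plus strand: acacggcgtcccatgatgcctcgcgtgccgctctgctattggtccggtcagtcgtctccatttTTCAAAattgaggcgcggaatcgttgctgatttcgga
Kif18b, chr11:102925107-102925206, minus strand: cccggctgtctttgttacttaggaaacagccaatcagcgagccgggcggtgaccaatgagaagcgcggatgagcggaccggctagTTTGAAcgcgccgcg
Kif15, chr9:122950999-122951098, plus strand: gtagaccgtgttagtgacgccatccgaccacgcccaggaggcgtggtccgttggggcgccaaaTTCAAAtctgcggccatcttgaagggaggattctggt
Kif23, chr9:61946782-61946881, minus strand: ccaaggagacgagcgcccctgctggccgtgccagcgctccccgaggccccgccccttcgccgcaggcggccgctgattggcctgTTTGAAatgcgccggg
Kif2a, chr13:107022338-107022437, minus strand: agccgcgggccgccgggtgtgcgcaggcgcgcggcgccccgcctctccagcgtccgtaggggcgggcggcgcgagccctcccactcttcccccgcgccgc
Kif13a, chr13:46929701-46929800, minus strand: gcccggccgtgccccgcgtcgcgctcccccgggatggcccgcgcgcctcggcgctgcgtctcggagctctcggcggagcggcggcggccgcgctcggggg
In Kif11 and Kif15 the CHR letters begin 19 bases before the annotated start. In Kif18b and Kif23 they begin just after it. Kif11, Kif18b and Kif23 also hold CCAAT letters upstream of the CHR letters, which the Kif15 window does not.

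None of the transport kinesins passed the study threshold over all fetuses. Kif1b, a kinesin-3 motor of mitochondria and synaptic vesicle precursors, had the lowest p of the class. It ran from 5.21 through 5.51 to 5.71 in CS and from 5.59 through 5.65 to 5.89 in AIR lungs, with 11 of 12 CS fetuses below the AIR mean. The difference was -0.22 with a standard error of 0.07 (limma adjusted p = 0.468, exact permutation p = 0.00152), but its 1.17-fold change stayed under the fold limit. Kif13a, a motor of endosomes, ran from 5.27 through 5.58 to 5.80 in CS and from 5.49 through 5.71 to 5.76 in AIR lungs. The AIR values all lay inside the CS range, and the difference was -0.13 with a standard error of 0.07 (limma adjusted p = 0.696, exact permutation p = 0.0367).

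The conventional kinesin-1 heavy chains carry vesicles and mitochondria. The widely expressed Kif5b was 5.97 ± 0.17 in CS and 6.01 ± 0.14 in AIR lungs (difference -0.05). The neuronal Kif5a and Kif5c were below the array median, at 1.58 ± 0.26 and 1.49 ± 0.25 (difference 0.08) and at 1.74 ± 0.33 and 1.88 ± 0.29 (difference -0.14). Kif3c, a kinesin-2 subunit known mostly from neurons, was 3.38 ± 0.26 and 3.28 ± 0.22 (difference 0.10). The neuronal Kif1a was 2.40 ± 0.42 and 2.41 ± 0.37 (difference -0.01). Of the remaining kinesin-3 motors, Kif1c was 5.24 ± 0.13 and 5.13 ± 0.22 (difference 0.11), the endosome motor Kif16b 4.50 ± 0.21 and 4.55 ± 0.25 (difference -0.05) and Kif13b, a motor of vesicles and polarity proteins, 4.78 ± 0.23 and 4.84 ± 0.23 (difference -0.06).

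Among ciliary kinesins Kif3a came closest to a call. It is a subunit of kinesin-2, the motor that moves intraflagellar trains toward the tip of the cilium. Kif3a ran from 4.28 through 4.69 to 5.40 in CS and from 4.04 through 4.51 to 4.87 in AIR lungs, with 3 CS fetuses above all AIR fetuses. The difference was 0.25 with a standard error of 0.12 (limma adjusted p = 0.658, exact permutation p = 0.0486), a 1.19-fold change under the fold limit. Its partner subunit Kif3b was 4.61 ± 0.19 in CS and 4.60 ± 0.29 in AIR lungs (difference 0.01). Kif19a, which trims the length of motile cilia, ran from 1.90 through 2.103 to 2.62 in CS and from 1.84 through 2.0 to 2.56 in AIR lungs, over nearly the same span. Its difference was 0.13 with a standard error of 0.11 (limma adjusted p = 0.838, exact permutation p = 0.241).

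The other ciliary kinesins differed by -0.09 to 0.15. Kif7, which acts at the cilium tip in Hedgehog signalling, was 2.68 ± 0.39 in CS and 2.54 ± 0.33 in AIR lungs (difference 0.15). Kif24, which restrains the start of cilium assembly at centrioles, was 2.99 ± 0.34 and 2.87 ± 0.11 (difference 0.12). Kif27, a relative of Kif7 that acts in motile cilia, was 1.999 ± 0.17 and 2.09 ± 0.26 (difference -0.09). The kinesin-9 motors of motile cilia, Kif6 and Kif9, were 2.75 ± 0.21 and 2.71 ± 0.17 (difference 0.04) and 2.14 ± 0.16 and 2.14 ± 0.18 (difference 0.00). Kif17, a motor of cilia and dendrites, was 1.60 ± 0.19 and 1.67 ± 0.21 (difference -0.07).

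Kif12, a kinesin of epithelia such as kidney tubules, was the only kinesin outside the mitotic class that passed the threshold. It was dim, at 1.45 to 2.11 with a median of 1.66 in CS lungs and at 1.23 to 1.66 with a median of 1.34 in AIR lungs. All CS values were above the AIR mean, and 7 of 9 AIR fetuses were below every CS fetus. The means were 1.72 ± 0.21 (SD, n = 12) and 1.37 ± 0.13 (SD, n = 9), a 1.27-fold difference. The log2 difference was 0.35 with a standard error of 0.08 (limma adjusted p = 0.415, exact permutation p = 0.000463). At such an intensity, below the array median, the level lies near the background of the array. The remaining members were Kif21a (3.69 ± 0.39 in CS and 3.70 ± 0.37 in AIR lungs, difference -0.01), which restrains microtubule growth, and Kif21b (2.67 ± 0.49 and 2.46 ± 0.18, difference 0.22), known from neurons and lymphocytes. Kif26a (2.61 ± 0.26 and 2.56 ± 0.30, difference 0.05) and Kif26b (2.06 ± 0.29 and 2.05 ± 0.17, difference 0.01) are atypical kinesins.

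Kinesins of 1 subfamily share the fold of the motor domain, and 5 subfamilies hold both a mitotic and a non-mitotic member here. In kinesin-3 the difference was 0.44 for Kif14 and -0.22 for Kif1b. The gap of 0.67 between their differences had an exact permutation p of 0.0034. Adjusted over the 16 pairs formed in this way, after the values had been seen, this was 0.0544, and no pair fell under 0.05. In kinesin-8 the difference was 0.73 for Kif18b, 0.51 for Kif18a and 0.13 for the ciliary Kif19a. In kinesin-12 both Kif15 and Kif12 were called higher (0.67 and 0.35). In kinesin-13 the difference was 0.51 for the mitotic Kif2c and 0.12 for the ciliary Kif24. It was -0.07 for Kif2a and 0.07 for Kif2b, which also count as mitotic. In kinesin-4 it was 0.51 for the mitotic Kif4, 0.22 for Kif21b, 0.15 for Kif7, -0.01 for Kif21a and -0.09 for Kif27.

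The proteins that work with the mitotic kinesins were read from a list of 14. The list was chosen with earlier results of these data known, so its count is not an independent test. All 14 were called higher in CS lungs, against 2.46% of all genes, with a median difference of 0.45. Racgap1, the other subunit of centralspindlin beside Kif23, was 5.47 in CS and 4.82 in AIR lungs (difference 0.65). Cdca8, or borealin, of the chromosomal passenger complex differed by 0.45, and Cit, a midbody kinase that binds Kif14, by 0.47. Prc1, which bundles the microtubules that Kif4 and Kif23 act on, also differed by 0.47. The highest p of the list was that of Ect2, the activator of RhoA at the cell equator, with a difference of 0.38. Of the kinesins without a numbered symbol, Cenpe, the kinetochore motor, was called (5.08 and 4.53, difference 0.55) and 4 were not. These were the minus-end motors Kifc1 (0.33), Kifc2 (-0.08), Kifc3 (0.15) and Kifc5b (0.08), of which Kifc1 and Kifc5b are close copies that probes may not tell apart.

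The cargo adaptors and light chains of transport kinesins gave 0 of 14 calls, against 2.46% of all genes called higher and 1.93% called lower, and a median difference of 0.00. Closest to a call were Mapk8ip2, a scaffold that links kinesin-1 to its cargo, with a difference of 0.20 and an unadjusted limma p of 0.0045, and the light chain Klc3, with 0.22 and 0.0467. Both stayed under the fold limit. In the lower animal numbers 2 of the 14 were called lower, against 5.67% of all genes, and in the higher numbers 1, against 1.64%. Of 12 genes of ciliated cells 0 were called in either direction, and of 8 neural genes 0.

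General proliferation genes, also listed with earlier results of these data known, moved with the mitotic kinesins. Of 11 such genes 10 were called higher in CS lungs, against 2.46% of all genes, led by Ccnb2, cyclin B2 (6.42 and 5.64, difference 0.78), Bub1b, a spindle checkpoint kinase (0.83), Ccna2, cyclin A2 (0.65), and Pbk, a mitotic kinase (0.60). Cdkn3, a phosphatase that acts on cyclin-dependent kinases, was not called (0.12). The list mean ran from 5.37 to 6.41 in CS and from 4.74 to 5.85 in AIR lungs, and no gene of the list had a mean under the array median. The part of cycling cells in the difference of the mitotic kinesins was not tested. Of the lung epithelial genes 3 of 8 were called lower in CS lungs, against 1.93% of all genes. Of the heart muscle genes 2 of 8 were called lower (Ryr2 and Myl4), with list means of 4.28 to 7.50 in CS and 4.62 to 7.59 in AIR lungs. Without the 11 arrays high in other tissue, 8 CS and 2 AIR arrays were left and 7 of the 13 mitotic kinesins were called. The share of all genes called in that smaller set is not given here, and the 2.46% of the full fit does not apply to it.

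The difference was then read within the ranges of animal numbers, since CS and AIR fetuses are spread unevenly over them. In the lower numbers the same 11 mitotic kinesins were called higher, against 4.24% of all genes, with a median difference of 0.97. At a false discovery rate of 10% 7 of them passed (limma), against 1.41% of all genes. In the higher numbers 0 of 13 were called higher, against 2.24% of all genes, and 0 at a false discovery rate of 10%. No mitotic kinesin there had an unadjusted p under 0.05, and the median difference was 0.06. The transport kinesins gave 0 calls in either range. Of the 9 ciliary kinesins, Kif3a and Kif24 were called higher in the lower numbers, against 4.24% of all genes. Kif27 was called lower there, against 5.67% of all genes. In the higher numbers 1 ciliary kinesin was called higher, Kif19a, against 2.24% of all genes. At a false discovery rate of 10% 0 ciliary kinesins passed in either range (limma). Lung epithelial genes moved in the lower numbers too, with 4 of 8 called lower, against 5.67% of all genes, and list means of 7.27 to 7.76 in CS and 7.97 to 8.01 in AIR lungs, which did not overlap. Lamp3, of alveolar type II cells, differed by -1.04 there (limma adjusted p = 0.0213). The list means overlapped in the higher numbers, at 7.77 to 8.02 and 7.72 to 7.98. The part of epithelial cells in the difference of the mitotic kinesins was not tested.

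**Figure D3:**
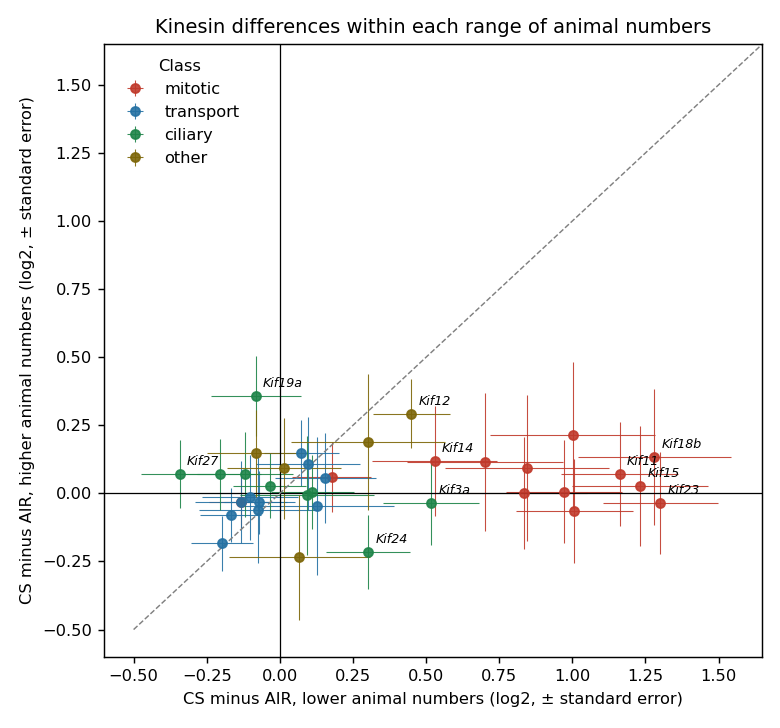
Difference between CS and AIR lungs for the 37 kinesins in the lower animal numbers (x axis, 8 CS and 3 AIR) and in the higher animal numbers (y axis, 4 CS and 6 AIR), as log2 with limma standard errors. The dashed line marks equal differences. The called mitotic members reach 0.53 to 1.301 on the x axis and stay between -0.06 and 0.21 on the y axis.

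Kif23 showed the lowest p for the difference between the ranges. In the lower numbers its 3 AIR fetuses had 3.90, 4.16 and 4.50, while the 8 CS fetuses ran from 5.11 through 5.35 to 5.96. In the higher numbers the 6 AIR fetuses ran from 4.50 through 4.87 to 5.13 and the 4 CS fetuses had 4.52, 4.79, 4.93 and 5.06. CS and AIR were thus apart in the lower numbers and mixed in the higher numbers. The differences were 1.301 with a standard error of 0.20 and -0.04 with a standard error of 0.19. They differed by 1.34 (limma unadjusted p = 8.22e-05, adjusted p = 0.133).

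Kif11 was next. In the lower numbers its AIR fetuses had 3.77, 4.18 and 4.39 and its CS fetuses ran from 4.87 through 5.24 to 5.67. In the higher numbers the AIR fetuses ran from 4.04 through 4.40 to 5.01 and the CS fetuses had 4.43, 4.55, 4.58 and 4.72, inside the AIR range. The differences were 1.16 and 0.07, and they differed by 1.09 (limma adjusted p = 0.269).

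In the lower numbers 10 kinesins had every CS fetus above every AIR fetus, 9 of them mitotic and the last Kif12, against 1.7% of all genes. Kif22 and Kif14 were the called mitotic members that overlapped. With 8 and 3 fetuses the smallest p that regrouping can give is 0.00606, and these 10 except Kif2c and Kif12 reached it. In the higher numbers no kinesin was without overlap, against 0.482% of all genes with CS above AIR. AIR male 5 and AIR female 9 were above all 4 CS fetuses of that range in 10 of the 11 called mitotic kinesins. AIR female 7 and AIR male 3 were below all 4 CS fetuses in 9 and 8 of the 11. All these AIR arrays were among those high in other tissue. AIR male 5 was high in the heart, skeletal muscle and oesophagus lists and AIR female 9 in the thymocyte list (mean 3.66). AIR female 7 was high in skeletal muscle and oesophagus, and AIR male 3 in heart muscle. CS male 5 and CS male 6 of that range were high in other tissue too. The part of other tissue in these values was not tested.

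**Figure D4:**
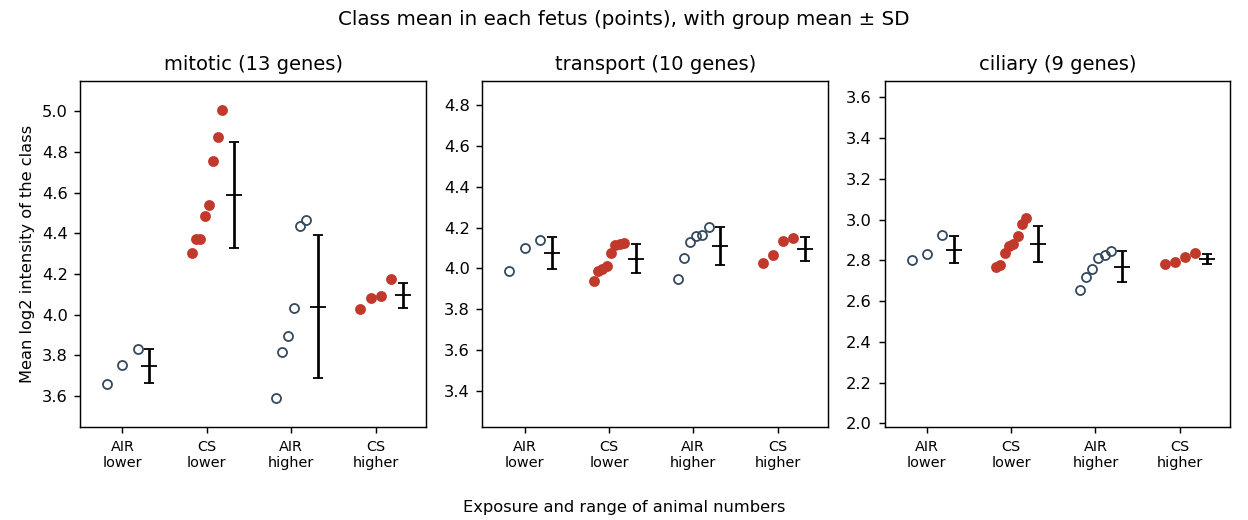
Mean log2 intensity over the mitotic, transport and ciliary kinesins in each fetus (1 point per fetus, sorted by value), with group means ± SD, by exposure and range of animal numbers. The panels span the same height. The mitotic mean was 4.30 to 5.005 in CS and 3.66 to 3.83 in AIR lungs of the lower numbers, and 4.03 to 4.18 and 3.59 to 4.47 in the higher numbers.

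The mean over the 13 mitotic kinesins shows where the fetuses stood. In the lower numbers CS lungs averaged 4.59 ± 0.26 (SD, n = 8) and AIR lungs 3.75 ± 0.09 (SD, n = 3). In the higher numbers CS lungs averaged 4.09 ± 0.06 (SD, n = 4) and AIR lungs 4.04 ± 0.35 (SD, n = 6). CS lungs of the lower numbers were therefore higher, and AIR lungs of the lower numbers lower on average, than their counterparts of the higher numbers. The transport mean stayed between 3.94 and 4.20 in all 21 fetuses and the ciliary mean between 2.65 and 3.01. Over the same groups the proliferation mean was 5.50 to 6.41 in CS and 4.74 to 5.09 in AIR lungs of the lower numbers, and 5.37 to 5.52 and 5.01 to 5.85 in the higher numbers. Of the 11 proliferation genes 10 were called higher in the lower numbers, against 4.24% of all genes, and 1 in the higher numbers, against 2.24%, namely Ccnb2 (0.40, unadjusted limma p = 0.0406). The mitotic partners gave 14 and 0 of 14 calls in these ranges. Exposure and number range are unevenly mixed, and what sets the ranges apart was not tested.

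The effects of CS in the 2 ranges differed at the study threshold for 10 of the 37 kinesins, against 7.66% of all genes, and for 0 kinesins at a false discovery rate of 10%, against 0.0721% of all genes. Of these 10, 7 were mitotic, namely Kif23, Kif11, Kif18a, Kif15, Kif20a, Kif18b and Kif20b, each with the larger difference in the lower numbers. The other 3 were ciliary. Kif3a differed by 0.52 in the lower and -0.04 in the higher numbers, and Kif24 by 0.30 and -0.22. Kif27 went the other way, with -0.34 and 0.07. Without the arrays high in other tissue, where each range held 1 AIR array, 2 kinesins passed, and neither Kif23 nor Kif11 did.

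In single values, Kif27 in the lower numbers was 2.03, 2.40 and 2.52 in AIR and ran from 1.79 through 1.94 to 2.32 in CS lungs. Its mean over all arrays, 2.04, lay below the array median. The other kinesins of motile cilia differed in that range by 0.11 (Kif6), -0.04 (Kif9) and -0.08 (Kif19a). The ciliary Kif3a and Kif24 were called higher there. Of the genes of ciliated cells 5 of 12 were called lower in that range, against 5.67% of all genes. Their list mean was 3.47 to 3.76 in CS and 3.83 to 3.98 in AIR lungs. Whether the number of ciliated cells took part was not tested. In the higher numbers 2 of the 37 kinesins, Kif19a and Kif12, were called higher (0.36 and 0.29), against 2.24% of all genes. Both had a mean below the array median and a limma adjusted p of 0.9995 in that range. Kif19a there had 2.02, 2.26, 2.50 and 2.62 in CS lungs and ran from 1.84 through 1.95 to 2.21 in AIR lungs, so that 1 CS value lay inside the AIR range. Kif12 was the only kinesin called higher in both ranges.

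Within females 7 mitotic kinesins were higher in CS lungs, against 2.85% of all genes, and within males 6, against 2.53% of all genes. Kif11, Kif18b and Kif23 were called in both sexes. Kif15, Kif20a, Kif2c and Kif4 were called in females, and Kif22, Kif18a and Kif20b in males. Outside the mitotic class Kif12 was called higher in both sexes. Of the transport kinesins, Kif1c was called higher (0.33) and Kif1b lower (-0.29) in females, where 2.65% of all genes were lower, and Kif16b lower (-0.27) in males, where 2.19% were. No ciliary kinesin was called in either sex. The median mitotic difference was 0.59 in females and 0.51 in males, and no mitotic kinesin differed in its CS effect between the sexes at the study threshold. At a false discovery rate of 10% 0 were called in either sex (limma), against 0% of all genes. The mitotic counts at the study threshold fell to 3 in females without AIR female 7 and to 2 in males without AIR male 1. With the heart list mean in the fit the count in males fell to 0. The shares of all genes called in these refits are not given. Kif14 was the called member that passed in neither sex, with differences of 0.47 and 0.42.

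The effect of CS differed between the sexes for 2 of 37 kinesins, Kif1c and Kif16b, against 3.73% of all genes. This share is near that of all genes. Kif1c, a motor of vesicles in fibroblasts and neurons, was 4.80 to 5.19 in the 4 AIR females and 5.13 to 5.42 in the 6 CS females. In males it was 5.11 to 5.50 under AIR and 5.06 to 5.40 under CS. The difference was 0.33 in females, where the groups barely overlapped, and -0.08 in males. They differed by 0.41 with a standard error of 0.14 (limma unadjusted p = 0.00788, adjusted p = 0.9998). Kif16b, a motor of early endosomes, was 4.14 to 4.61 in AIR and 4.39 to 4.78 in CS females. In males it was 4.54 to 4.83 under AIR and 4.11 to 4.77 under CS. The differences of 0.22 and -0.27 were apart by 0.48 with a standard error of 0.18 (limma unadjusted p = 0.0135, adjusted p = 0.9998).

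**Figure D5:**
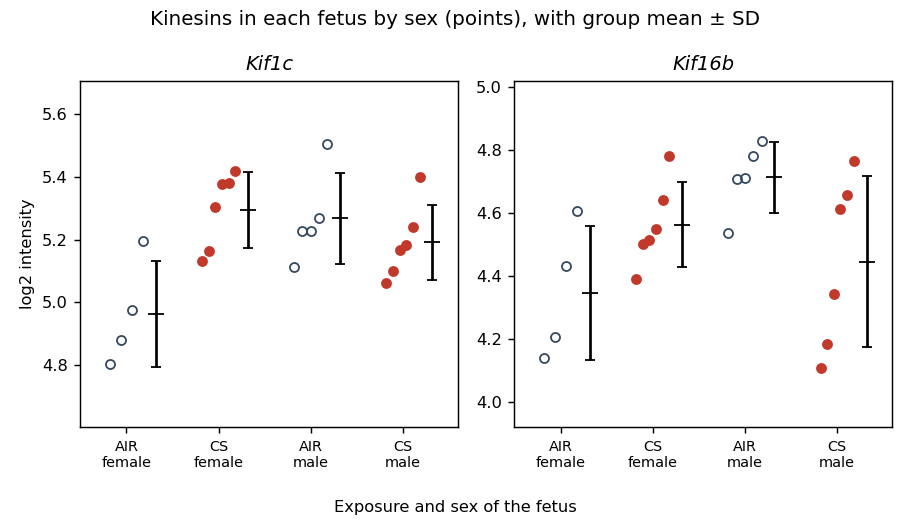
Log2 intensity of Kif1c and Kif16b in each fetus (1 point per fetus, sorted by value), with group means ± SD, by exposure and sex (4 AIR and 6 CS females, 5 AIR and 6 CS males). Both kinesins were higher on average after CS in females and lower in males, and CS and AIR values overlapped in every panel and sex.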

How the data were processed

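RNA of 21 fetal lungs was hybridised to Affymetrix Mouse Gene ST 2.1 arrays. The authors left out 3 AIR arrays after quality control and made the deposited log2 intensities with Expression Console 1.3.0.187 by RMA (background correction, sketch-quantile normalization, median polish). Quantile normalization assumes like distributions in all arrays, and dim probe sets lie near background. Of 41345 probe sets 802 redundant ones were removed and 40543 fitted with limma 3.58.1 in R 4.3.3, with 23521 carrying 1 symbol. Adjusted p-values (Benjamini-Hochberg) cover all fitted probe sets. Fits used all 21 arrays, with exposure alone or with exposure by sex or by number range. Only the fit with exposure alone was tested on simulated data. Permutation tests were exact and two-sided (Python 3.11.15, numpy 2.4.6). Full values are given for the members of lowest p in each class and in each difference between effects. The members, classes and lists were chosen with earlier results of these data known. Alternatives changed the probe sets, variance model, normalization, array weights, covariates, blocks, thresholds, class membership and arrays. The number of arrays limits the precision.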

Additional observations from a re-analysis of the deposited data

Results flagged for a closer look

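Groups of 4 to 9 fetuses were examined (CS by sex, AIR by sex, and all AIR). In 17 of these 185 groups 1 fetus stood apart from the rest by Dixon's test, which flags about 1 group in 20 by chance. The groups overlap, since all AIR fetuses are also counted within their sex. Among mitotic kinesins, AIR female 9 was high for Kif20a within AIR females (4.73) and AIR male 5 was high for Kif4 within AIR males (4.17). Among transport kinesins AIR male 4 was high for Kif1b within AIR males (5.83) and low for Kif13b within AIR males and within all AIR lungs (4.28). AIR female 9 was low for Kif13a among all AIR lungs (5.49), AIR male 5 high for Kif1a within AIR males (3.12) and CS male 1 high for Kif5c within CS males (2.39). Among ciliary kinesins CS male 3 was high for Kif3a within CS males (5.10), CS female 12 high for Kif19a within CS females (2.50) and AIR female 8 low for Kif27 within AIR females (1.81). Among other kinesins AIR male 3 was high for Kif12 within AIR males (1.66) and CS male 1 high for Kif21b within CS males (4.09). AIR female 9 was high for Kif21b among all AIR lungs (2.91) and CS female 10 low for Kif21b within CS females (2.18). For Kif26a, CS male 6 was high within CS males (3.08) and AIR male 5 high within AIR males (3.17).

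The CS effect differed between the ranges of animal numbers at the study threshold for 10 kinesins. The effect in the lower minus that in the higher numbers was 1.34 for Kif23 and 1.21 for Kif15. It was 1.15 for Kif18b, 1.09 for Kif11, 1.07 for Kif18a, 0.97 for Kif20a and 0.83 for Kif20b. Among ciliary kinesins it was 0.55 for Kif3a, 0.52 for Kif24 and -0.41 for Kif27. The CS effect in females minus that in males was 0.41 for Kif1c and 0.48 for Kif16b. None of these 12 passed a false discovery rate of 10% over all probe sets (limma).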

How the results depend on the processing

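The count of 11 mitotic kinesins higher and the count of 0 transport kinesins stayed within 1.5 times under all other probe set, variance, normalization, weighting, covariate and block settings. Leaving out single fetuses gave 11 mitotic calls each time. Without arrays high in other tissue (10 left) the calls were 7 mitotic, 1 ciliary (Kif3b) and 2 other kinesins (Kif12 and Kif21a), 2 mitotic in females, 2 mitotic in males, and 2 kinesins in the difference between ranges. Only 2 AIR arrays remain there, 1 in each sex and range, so the counts by sex and range rest on single AIR arrays assumed to vary like the other groups. At a false discovery rate of 10% all kinesins, mitotic kinesins, other kinesins, females, males and both differences between effects gave 0, and the lower numbers 7. At a fold over 1.5 the calls were 5 kinesins in all, 5 mitotic, 0 other and 0 in the difference between sexes. With probe sets of mean log2 over 3 only, other kinesins gave 0, since Kif12 is dimmer, and males gave 0 once the heart list entered as a covariate. The share of all genes called is not given without arrays high in other tissue or at a fold over 1.5. It is also not given for the filter of mean log2 over 3 or the heart covariate. Whether the drops are particular to kinesins cannot be read from these counts, and the cause of these changes was not tested.

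With each fetus left out in turn, mitotic calls ranged from 3 to 10 in females (3 without AIR female 7, 4 without AIR female 6) and from 2 to 8 in males. Males gave 2 without AIR male 1 and 3 without CS male 1, CS male 3 or AIR male 2. Ciliary calls ranged from 0 to 1, with Kif3a called on leaving out CS male 4, AIR female 7, CS female 11, or else AIR male 3 or 5. With number range as a block Kif2c lost its call (0.39, unadjusted limma p = 0.0511), which left 10 mitotic calls. Shares of all genes called are not given for the refits with a fetus left out or with a block.

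The replicate numbers of the titles do not pair fetuses. Same-numbered CS and AIR fetuses correlated at -0.07 to 0.13, and 1 of 9 CS fetuses correlated best with its own number. With the replicate block 11 mitotic, 0 transport and 1 ciliary kinesin (Kif3a) were called, the median mitotic difference was 0.60, and Kif1a turned to 0.056, Kif3b to -0.018, Kif9 to 0.011 and Kif21a to 0.026.

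Signs turned only for members not called over all arrays. Without arrays high in other tissue the difference was 0.028 for Kif2a, -0.022 for Kif2b, 0.11 for Kif5c, -0.070 for Kif5a, 0.086 for Kif5b, 0.24 for Kif13b, 0.24 for Kif1a, 0.14 for Kif27, 0.12 for Kif17, -0.069 for Kif6, 0.051 for Kif9, -0.041 for Kif26a and 0.54 for Kif21a. With number range as a block it was 0.036 for Kif1a and -0.0191 for Kif3b, and with the heart covariate 0.066 for Kif1a. With array weights it was 0.0016 for Kif9, -0.0058 for Kif26b and 0.026 for Kif21a. With single fetuses left out it ranged from -0.087 to 0.084 for Kif1a, -0.055 to 0.054 for Kif3b, -0.031 to 0.043 for Kif9, -0.0046 to 0.13 for Kif26a, -0.049 to 0.057 for Kif26b and -0.099 to 0.062 for Kif21a. The number of arrays, 3 AIR in the lower and 4 CS in the higher numbers, limits what the ranges can show.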
